A study of Mus musculus with 12 samples.

Results

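The endpoint tumors of a mouse breast cancer experiment, which carried an inducible p53 vector and had received both study drugs, were compared with the baseline tumors, which carried an empty vector and had received vehicle. The comparison rests on 6 of the 12 libraries of the series, 3 titled p53ERTAM with combo and 3 titled EV with vehicle, chosen by their titles. RNA of whole tumors was sequenced after ribosomal depletion, and reads were counted per gene. The tumors were of the line 2153L, from a genetically engineered mouse and labelled triple-negative breast cancer, and they were carried by Balb/c females in a fat pad of the mammary gland. The baseline group carried the empty vector (EV) and received vehicle. All groups are labelled 8 days, so baseline and endpoint name groups and not time points. The endpoint group carried p53ERTAM, a tamoxifen-inducible p53, and received combo, which was ORIN1001 at 150 mg/kg daily with docetaxel at 20 mg/kg weekly for 8 days. Another 3 libraries, p53ERTAM with vehicle, shared the vector of the endpoint group and the vehicle of the baseline group, and its values are given beside those of the other groups. The labels do not give the age of the mice, which mice received tamoxifen, or the state of the tumor's own p53. Vector and drugs both differ between the endpoint and baseline groups, so their effects cannot be told apart in the joint comparison.

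In p53ERTAM the p53 protein is fused to a modified hormone-binding domain of the estrogen receptor, which keeps it inactive until tamoxifen binds. Active p53 induces genes that halt the cell cycle (Cdkn1a), limit p53 itself (Mdm2) and open the mitochondrial death pathway (Pmaip1, Bbc3). ORIN1001 blocks the RNase of IRE1α, the sensor of the endoplasmic reticulum that splices Xbp1 mRNA and degrades selected other mRNAs, and docetaxel stabilizes microtubules and so disturbs mitosis.

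The 3 EV vehicle libraries held 20431888 to 23188928 counts, the 3 p53ERTAM combo libraries 21914913 to 24424964 and the 3 p53ERTAM vehicle libraries 13484873 to 19461986. Levels are given as CPM, the count scaled to a common library total, which allows a gene to be compared between libraries but not with another gene. The baseline libraries were less alike (Pearson r of log CPM across genes 0.96 to 0.971) than the combo libraries (0.985 to 0.989). EV vehicle replicate 3 stood apart on the second principal component of the 6 libraries. It also had the lowest summed interferon-stimulated genes, macrophage markers and endothelial markers of its group. EV vehicle replicate 2 held 196 CPM of summed B and plasma cell markers, against 1.66 to 11.8 CPM in the other 5 libraries, with Pax5 at 20.3 CPM and Jchain at 117 CPM. The part of this lymphocyte signal in the immune results was not tested, and the counts of the immune lists are also given without each of these libraries. Whether libraries of a group came from separate animals is not stated beyond their replicate numbers, so p-values measure the spread between these libraries.

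Of 16859 genes tested with edgeR's quasi-likelihood test, 5916 differed between p53ERTAM combo and EV vehicle at an adjusted p below 0.05, which is 35.1% of the genes. Of these, 2852 were higher in p53ERTAM combo (16.9%) and 3064 were lower (18.2%). The higher calls were larger in size: 1765 exceeded 2-fold against 774 of the lower calls, and 613 exceeded 4-fold against 161. The median log2 fold change over all tested genes was 0.0017. Among protein-coding genes the called share was 41.1%, and this is the nearer background for the lists described here, which hold protein-coding genes almost throughout. When any 1 of the combo libraries was left out, the calls fell to 1716 to 1859 higher and 1955 to 2048 lower. In a fit of the 9 libraries, p53ERTAM vehicle against EV vehicle gave 6411 calls of 17422 genes tested (36.8%, with 17.8% higher and 19% lower). The same fit of p53ERTAM combo against p53ERTAM vehicle gave 627 calls (3.6%). These steps share the p53ERTAM vehicle libraries, and each shares a group with the joint comparison, so their values are only set side by side. The log2 fold changes of the former are called the vector step and those of the latter the combo step. Protein-coding genes took 86.65% to 93.95% of the counts in p53ERTAM vehicle, with replicate 2 the lowest. The share was 94.94% to 95.79% in EV vehicle and 94.54% to 95.32% in p53ERTAM combo. No p53ERTAM vehicle library was left out in turn, so how far the steps rest on any 1 of them was not tested.

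**Figure D1:**
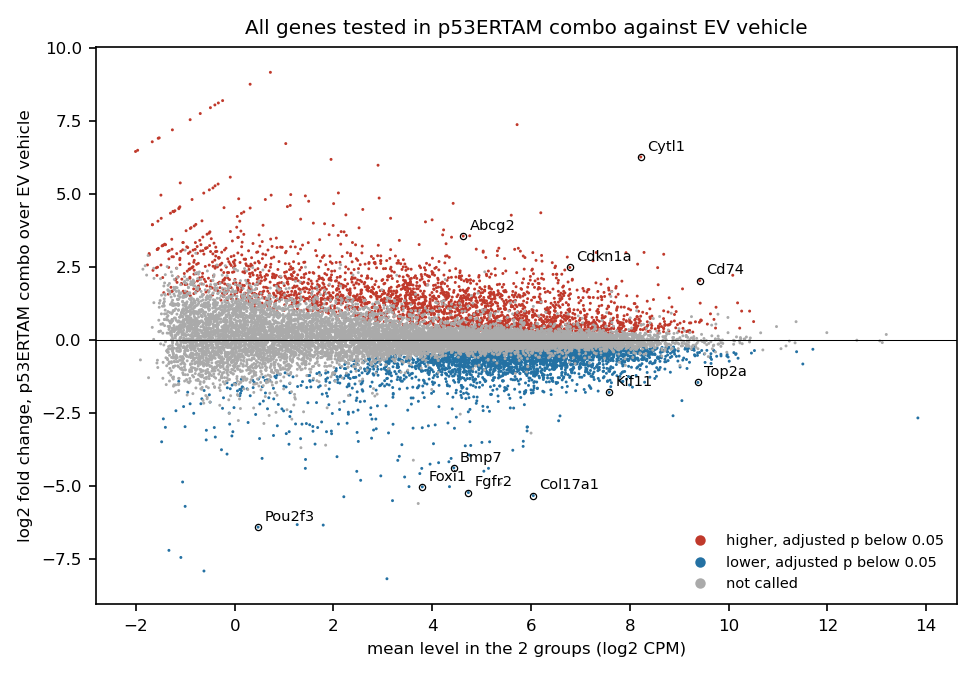
Log2 fold change of p53ERTAM combo over EV vehicle (vertical axis) against the mean level of the 2 groups in log2 CPM (horizontal axis) for the 16859 genes tested, with 1 point per gene colored by call. Of the 11 labelled genes, Cytl1 lies highest at 6.27 and Pou2f3 lowest at -6.42.

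The vector was checked first through Trp53 and Esr1, the genes that a p53 and estrogen receptor fusion could feed with reads. Trp53 was at 40.9, 54.0 and 37.8 CPM in EV vehicle and at 59.8, 63.9 and 67.9 CPM in p53ERTAM combo. The libraries of the groups did not overlap, as was true of 51.1% of all genes tested (30.1% with p53ERTAM combo higher). The difference was 0.44 log2 units (SE 0.14, edgeR adjusted p = 0.043). In p53ERTAM vehicle Trp53 was at 49.8 to 57.5 CPM, which overlapped EV vehicle. Neither its vector step (0.18, edgeR adjusted p = 0.34) nor its combo step (0.24, edgeR adjusted p = 0.32) passed. The joint Trp53 call was lost on leaving out any 1 library other than EV vehicle replicate 2 (edgeR adjusted p = 0.0622 to 0.133). Esr1 was at 12.1, 9.40 and 4.99 CPM in EV vehicle, at 29.7 to 33.4 CPM in p53ERTAM vehicle and at 38.3 to 41.0 CPM in p53ERTAM combo. Its log2 fold change was 2.06 (SE 0.27, edgeR adjusted p = 0.0012), and the rise was already present in the vehicle-treated p53ERTAM libraries. Counts per gene do not separate reads of the vector from those of the mouse's own genes. The labelled tissue was checked through epithelial markers: Epcam was at 1239 to 1546 CPM in EV vehicle and at 887 to 1054 CPM in p53ERTAM combo, and Krt8, a luminal keratin, at 292 to 400 CPM and 182 to 278 CPM. Pgr, the progesterone receptor gene, was at most 0.685 CPM in EV vehicle.

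Textbook p53 target genes were mostly higher at the endpoint. Of 30 tested, 16 were higher and 1, the desmosome-associated apoptosis effector Perp, was lower, with a median log2 fold change of 0.57. That is 56.7% called, beside 41.1% of protein-coding genes. Cdkn1a, which encodes the p21 inhibitor of cyclin-dependent kinases (chromosome 17, 29090979 to 29100722 in GRCm38, + strand), was at 25.6, 44.4 and 25.2 CPM in EV vehicle. It reached 181, 210 and 175 CPM in p53ERTAM combo. Each endpoint library was thus above every baseline library, by 2.48 log2 units (SE 0.22, edgeR adjusted p = 0.00031). Ephx1, an epoxide hydrolase, showed the smallest p of the list and went from 16.4 to 18.3 CPM to 55.6 to 62.9 CPM (log2 fold change 1.63, SE 0.10). The cyclin Ccng1 went from 48.7 to 62.1 CPM to 127 to 139 CPM (1.17, SE 0.10), and the p53-induced receptor Eda2r from 0.771 to 1.17 CPM to 5.61 to 7.25 CPM (2.67, SE 0.30). Mdm2, which targets p53 for degradation, rose less, by 0.56 (SE 0.09, edgeR adjusted p = 0.003). Members that did not pass included Bax (0.24), Fas (0.42) and Ddb2 (-0.43).

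The p53 targets did not share one step. Cdkn1a had a vector step of 1.91 and a combo step of 0.55, and only the first passed (edgeR adjusted p = 0.00036 against 0.18). Ephx1 had a vector step of 0.28 and a combo step of 1.33 (edgeR adjusted p = 0.28 and 0.012), and Ccng1 had 0.25 and 0.90 (0.096 and 0.0066). Gadd45a, a DNA damage response gene, passed in opposite directions, with a vector step of 1.90 and a combo step of -0.64 (edgeR adjusted p = 1.75e-05 and 0.032). Its libraries read 15.2 to 17.8 CPM in EV vehicle, 60.9 to 74.9 CPM in p53ERTAM vehicle and 42.4 to 44.7 CPM in p53ERTAM combo. Over the whole list the median was 0.22 in the vector step and 0.26 in the combo step.

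**Figure D2:**
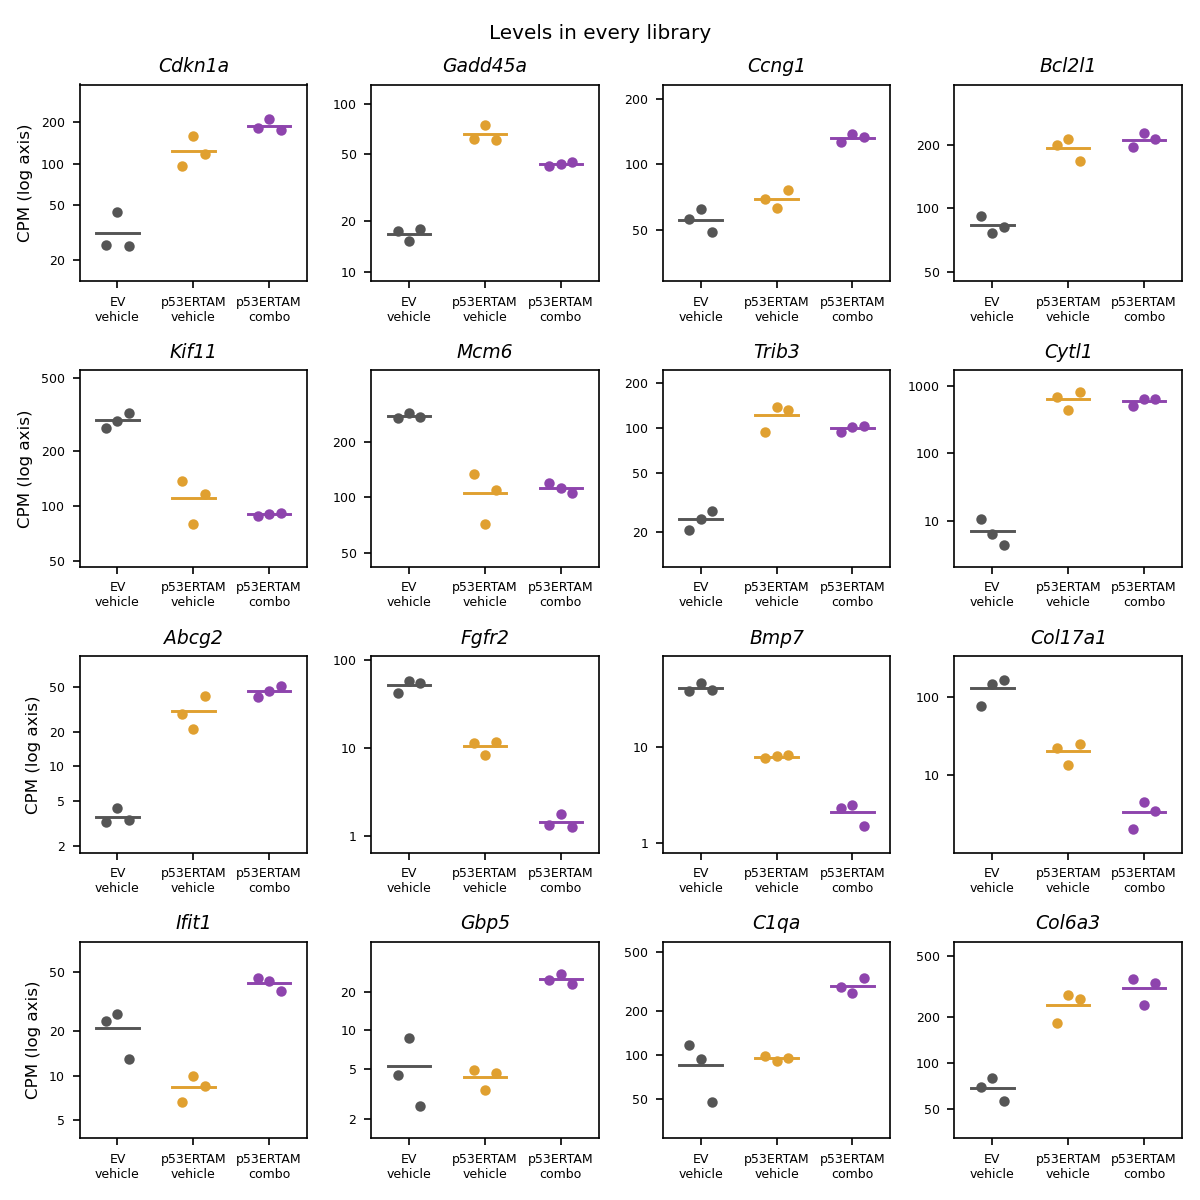
CPM of 16 genes on log axes in each of the 9 libraries of EV vehicle, p53ERTAM vehicle and p53ERTAM combo, with 1 point per library and a line at the group mean. Trib3, Cytl1 and Kif11 change at the first step, Ifit1, Gbp5 and C1qa have their highest values in the 3 p53ERTAM combo libraries, and Fgfr2 falls at both steps.

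Members of the BCL2 family moved on both sides of the death decision. Of 15 tested, 7 were higher and 1 was lower. That is 53.3% called, beside 41.1% of protein-coding genes. The BH3-only genes Pmaip1, which encodes NOXA (log2 fold change 1.7), and Bbc3, which encodes PUMA (0.98), were higher, and so was Bid (0.51). The survival genes Bcl2l1 (1.25), Mcl1 (0.54) and Bcl2 (0.65) were higher too. Bcl2l1, which encodes BCL-XL, went from 76.7 to 91.9 CPM to 194 to 227 CPM (SE 0.09, edgeR adjusted p = 0.00018), and p53ERTAM vehicle was already at 167 to 213 CPM. Bad, a BH3-only gene, was the lower member, from 32.6 to 33.6 CPM to 19.4 to 20.9 CPM (-0.83, SE 0.10).

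Cell cycle genes fell as a block. All 24 mitosis genes tested and all 27 DNA replication genes tested were lower in p53ERTAM combo, with medians of -1.03 and -1.13. Kif11, the spindle kinesin (chromosome 19, 37376403 to 37421859, + strand), went from 267, 292 and 322 CPM to 87.9, 90.1 and 91.8 CPM. The groups were far apart and the fall was 1.80 log2 units (SE 0.10, edgeR adjusted p = 9.9e-05). Bub1b, a spindle checkpoint kinase, fell by 1.02, and Cdk1, the mitotic kinase, fell by 1.12. The replicative helicase subunit Mcm6 went from 269 to 285 CPM to 106 to 119 CPM (-1.39, SE 0.08), and Rrm2, a subunit of ribonucleotide reductase, from 157 to 208 CPM to 53 to 62.8 CPM (-1.75, SE 0.13). Top2a, a DNA topoisomerase of dividing cells, went from 810 to 1086 CPM to 359 to 397 CPM (-1.46, SE 0.13).

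The vector step carried most of this fall in size: its medians were -1.0 for mitosis (23 of 24 members lower) and -1.08 for DNA replication (26 of 27 lower). The combo step had medians of -0.14 and -0.12. Cenpf, a kinetochore protein, was also lower in the combo step (-0.50, edgeR adjusted p = 0.041). Leaving out any 1 of the 6 libraries left 23 or 24 of the mitosis genes and 25 to 27 of the replication genes called lower.

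The arrest list itself was mixed. Of 12 tested members, 8 were lower and 2 higher. Cdkn1a, counted with the p53 targets, is not a member of this list, whose highest log2 fold change was 0.70. E2f8 (-1.93) and E2f1 (-1.06), transcription factors that peak in cycling cells, and Cdkn2c (-1.39), an INK4 inhibitor that cycling cells also transcribe, were lower. Cdkn2b, another INK4 inhibitor, was higher, from 13.5 to 13.8 CPM to 21.1 to 27.8 CPM (0.70, SE 0.14), and so was the antiproliferative gene Btg1 (0.40). Genes that silence repeats fell with the cycle genes, with 12 of 19 tested lower, none higher and a median of -0.34. Hells, a chromatin remodeler that supports DNA methylation, went from 210 to 229 CPM to 71.6 to 78.9 CPM (-1.67, SE 0.08). The histone methyltransferase gene Suv39h1 (-1.48), the polycomb gene Ezh2 (-0.85), Uhrf1 (-1.07) and the maintenance methyltransferase gene Dnmt1 (-0.71) were also lower. Leaving out p53ERTAM combo replicate 1 or replicate 3 reduced the silencing genes called lower to 7 or 8.

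Promoters of the mitosis genes are shown because CCAAT boxes are a known feature of promoters of cell cycle genes. RefSeq held a window of 250 bases before and 50 after the start for 21 of the 24 genes, and the 250 bases upstream were searched for CCAAT on both strands. It was present in 16 of the 21 (76.2%), in 13 of 21 DNA replication genes with a window (61.9%) and in 34.5% of all 27025 genes with a window. The 150 bases before the start (GRCm38.p6) follow for the 3 members with the smallest p that hold a match there, with the match in capitals, read 5′ to 3′ on the gene's strand. ATTGG is CCAAT on the opposite strand.
Kif11, chr19:37376232-37376381, + strand: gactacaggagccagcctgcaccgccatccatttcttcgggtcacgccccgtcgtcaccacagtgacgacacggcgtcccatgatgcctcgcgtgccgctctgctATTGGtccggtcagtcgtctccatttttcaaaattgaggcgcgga
Bub1b, chr2:118598061-118598210, + strand: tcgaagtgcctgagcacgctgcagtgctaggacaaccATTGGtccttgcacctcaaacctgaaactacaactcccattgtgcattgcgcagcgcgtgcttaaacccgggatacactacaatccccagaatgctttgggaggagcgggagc
Cdk1, chr10:69352913-69353062, - strand: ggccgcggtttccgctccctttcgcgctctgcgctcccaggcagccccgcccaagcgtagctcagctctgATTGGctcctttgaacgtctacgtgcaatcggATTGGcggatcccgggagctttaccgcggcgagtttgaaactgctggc
A match is a run of letters in the window and no measurement of binding.

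**Figure D3:**
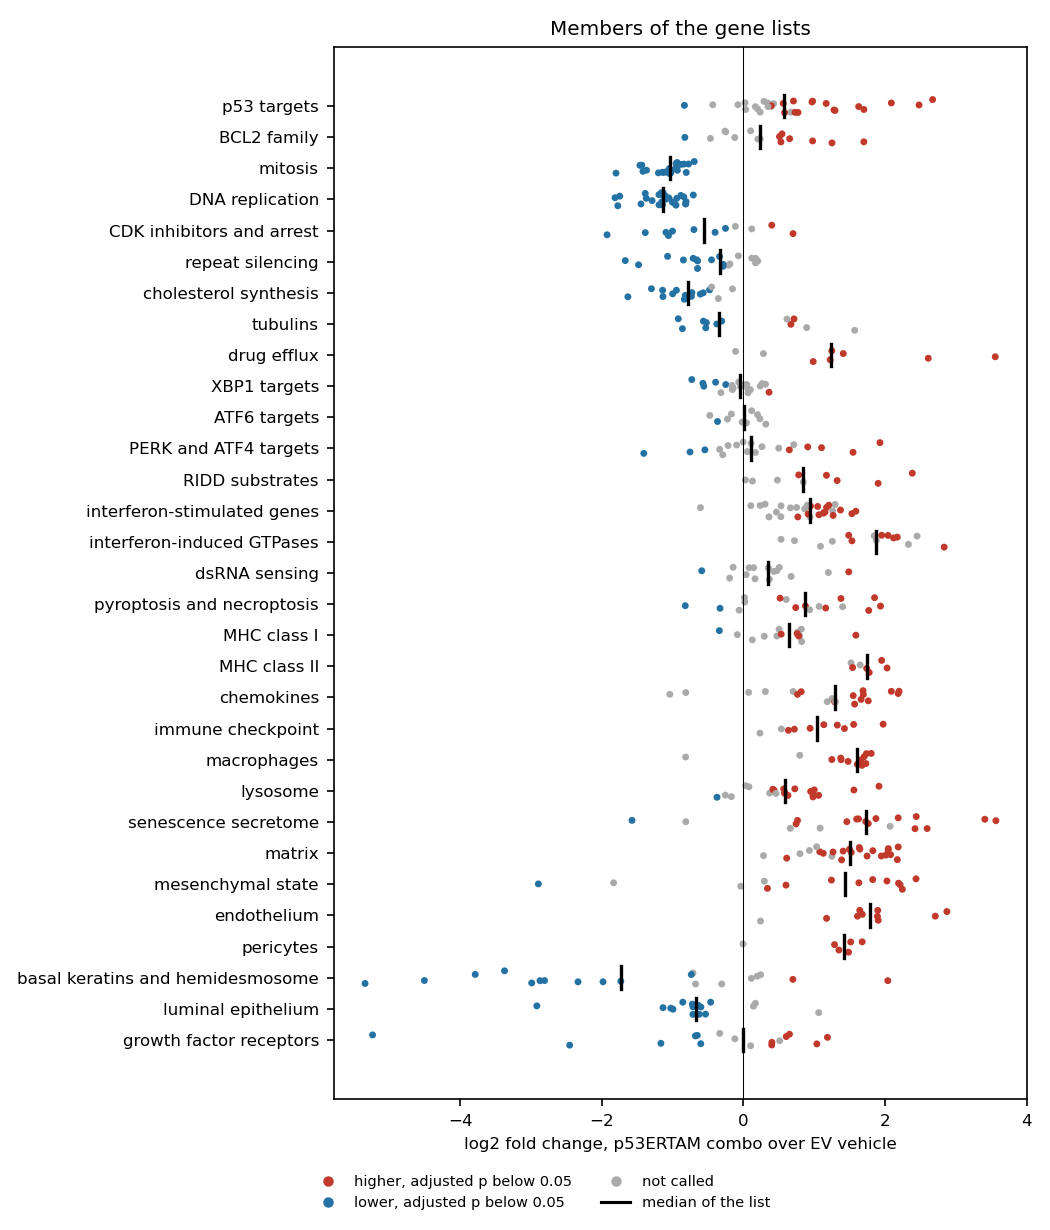
Log2 fold change of p53ERTAM combo over EV vehicle for each tested member of 31 gene lists, with 1 point per gene colored by call and a black bar at the list's median. The mitosis and DNA replication lists lie wholly below 0, at medians of -1.03 and -1.13, and the MHC class II list lies wholly above 0, at 1.74.

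Interferon-stimulated genes were higher at the endpoint. Of 30 tested, 15 passed as higher and none as lower, with a median of 0.94, beside 16.9% higher among all genes. Rsad2, the antiviral enzyme viperin, went from 10.6, 13 and 9.40 CPM to 27.6, 26.8 and 24.8 CPM (log2 fold change 1.17, SE 0.15, edgeR adjusted p = 0.001). Stat2 (0.91), a transcription factor of interferon signaling, was also higher without overlap of the groups. Ifit3 went from 1.57 to 3.15 CPM to 7.35 to 7.94 CPM (1.59, SE 0.29), and Herc6, an interferon-induced ubiquitin ligase, from 4.06 to 9.40 CPM to 16.9 to 21.4 CPM (1.53, SE 0.29). Members that did not pass included Oas1a (0.53), Oas3 (0.23) and Ifi27l2a (-0.61). EV vehicle replicate 3 was the lowest baseline library for all 30, such as Oas3 at 21.1 CPM against 67.0 and 98.8 CPM.

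The step values of these genes differ in sign. The median of the 30 genes was -0.59 in the vector step, where 10 were lower and none higher, and 1.42 in the combo step, where 22 were higher and none lower (2.17% of all genes were called higher in that step). Ifit1, an RNA-binding antiviral protein, was at 13 to 26.0 CPM in EV vehicle, at 6.63 to 9.94 CPM in p53ERTAM vehicle and at 37.2 to 45.7 CPM in p53ERTAM combo. It passed as lower in the vector step (-1.38, edgeR adjusted p = 0.0018) and as higher in the combo step (2.30, edgeR adjusted p = 0.0057). Its joint log2 fold change was 0.93. The number of members higher in the joint comparison was 22 without EV vehicle replicate 2 and 21 without replicate 3. It was 11 without EV vehicle replicate 1, and it was 7, 6 and 9 without p53ERTAM combo replicates 1, 2 and 3.

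The interferon-induced GTPases, which attack the membranes of intracellular pathogens, had the highest median of the immune pathway lists, at 1.88. With 7 of 15 higher and none lower, 46.7% were called. Among protein-coding genes 41.1% were called either way and 19.5% were called higher. Gbp5 went from 4.43, 8.75 and 2.54 CPM to 24.9, 27.6 and 23.2 CPM (2.17, SE 0.38, edgeR adjusted p = 0.0043). Iigp1 went from 4.21 to 55.3 CPM to 167 to 223 CPM (2.83, SE 0.75, edgeR adjusted p = 0.023). EV vehicle replicate 2 was the highest baseline library for both, and the Iigp1 call was lost on leaving out any 1 library other than that one (edgeR adjusted p = 0.0575 to 0.102). Their median was -0.41 in the vector step and 2.22 in the combo step. The number higher was 2, 12 and 7 without EV vehicle replicates 1, 2 and 3, and 2 or 3 without any 1 combo library. Gbp, Irg and Ifit genes have close copies, and reads shared between copies make single members uncertain.

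Promoters of these genes are shown for the core of the interferon-stimulated response element, searched as GAAA followed by any 2 bases and GAAA again, on both strands of the 250 bases upstream. It was present in 10 of 22 interferon-stimulated genes with a window (45.5%) and in 9 of 10 GTPase genes with a window (90.0%), against 3.04% of all 27025 genes. The 150 bases before the start (GRCm38.p6) follow for 3 members of each list that hold a match there, with the match in capitals. They were taken in order of p, but Iigp1, whose p was smaller than that of Irgm2, was left out of the choice. Its absence here does not show that its promoter lacks the element. TTTC, any 2 bases and TTTC is the same element on the opposite strand.
Rsad2, chr12:26456453-26456602, - strand: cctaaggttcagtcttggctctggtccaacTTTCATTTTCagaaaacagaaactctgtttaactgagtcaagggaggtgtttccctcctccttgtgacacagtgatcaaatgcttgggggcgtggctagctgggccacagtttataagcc
Ifit3, chr19:34583379-34583528, + strand: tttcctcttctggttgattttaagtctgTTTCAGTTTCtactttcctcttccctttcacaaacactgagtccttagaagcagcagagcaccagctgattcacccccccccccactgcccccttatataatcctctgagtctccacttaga
Ifit1, chr19:34640739-34640888, + strand: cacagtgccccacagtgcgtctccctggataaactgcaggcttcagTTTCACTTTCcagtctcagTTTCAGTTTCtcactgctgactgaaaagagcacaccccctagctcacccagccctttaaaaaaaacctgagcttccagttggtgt
Gbp7, chr3:142530186-142530335, + strand: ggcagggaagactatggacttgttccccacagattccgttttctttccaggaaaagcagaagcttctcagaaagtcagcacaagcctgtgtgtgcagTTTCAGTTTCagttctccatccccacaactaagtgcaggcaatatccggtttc
Irgm2, chr11:58214827-58214976, + strand: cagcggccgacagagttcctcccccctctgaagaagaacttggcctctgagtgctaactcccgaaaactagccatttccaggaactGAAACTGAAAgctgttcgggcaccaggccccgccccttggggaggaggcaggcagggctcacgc
Gbp2, chr3:142620513-142620662, + strand: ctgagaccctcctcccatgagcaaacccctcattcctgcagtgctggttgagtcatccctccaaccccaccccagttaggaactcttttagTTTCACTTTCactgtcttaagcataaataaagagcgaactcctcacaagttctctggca
Ifit1 holds the element at 2 places, and the other 5 windows hold it once.

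Of 15 tested sensors of double-stranded RNA and their partners, 1 was higher and 1 lower at the endpoint. That is 13.3% called, below the 35.1% of all genes and the 41.1% of protein-coding genes. Irf3, a transcription factor downstream of the sensors, was the lower member (-0.59, SE 0.15), and its call was lost without p53ERTAM combo replicate 2 or 3 (edgeR adjusted p = 0.0809 and 0.0933). Zbp1, a Z-nucleic acid sensor, was at 14.4, 15.4 and 3.82 CPM in EV vehicle and at 24.7, 27.1 and 29.6 CPM in p53ERTAM combo. The groups did not overlap, yet its log2 fold change of 1.20 (SE 0.42) did not pass (edgeR adjusted p = 0.061). Zbp1 passed without EV vehicle replicate 3, at 0.80 (edgeR adjusted p = 0.00139). Here too the steps had opposite signs, with medians of -0.34 (6 lower, none higher) and 0.70 (7 higher, none lower). Tlr3, the endosomal sensor, had steps of -1.0 and 1.02, both passing (edgeR adjusted p = 0.0044 and 0.034), and a joint difference of 0.04. The number higher was 5 of 15 without EV vehicle replicate 3 and 3 without replicate 2.

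Genes of inflammatory cell death were higher in 8 of 17 cases and lower in 2. Their called share was 58.8%, beside 41.1% of protein-coding genes. Gsdmd, the pore-forming effector of pyroptosis, went from 7.81, 10.9 and 7.98 CPM to 20.6, 23.3 and 19.7 CPM (1.16, SE 0.17, edgeR adjusted p = 0.0021). Casp4, which cleaves gasdermin D, was higher by 1.85 (SE 0.22), and the inflammasome sensor Nlrp3 by 1.93 (SE 0.28). Aim2 (1.38) and Casp1 (0.87) were higher as well. Casp8, an initiator caspase of apoptosis, was among the lower members (-0.33, SE 0.10). Mlkl (0.01), the executioner of necroptosis, and Ripk1 (0.02) did not pass. Aim2 lost its call without any 1 of the combo libraries (edgeR adjusted p = 0.0511 to 0.0663). The number higher was 4, 10 and 10 without EV vehicle replicates 1, 2 and 3, and without p53ERTAM combo replicates 1, 2 and 3 it was 3, 5 and 3.

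Antigen presentation genes were called more often in the MHC class II list (71.4%) than in the class I list (35.7%). In the MHC class II list 5 of 7 members passed as higher, with a median of 1.74. Cd74, the invariant chain, went from 170, 517 and 81.3 CPM to 999, 1220 and 1108 CPM (2.03, SE 0.58, edgeR adjusted p = 0.029). EV vehicle replicate 2, the library with the B cell markers, was the highest baseline library for all 7 members. Without it 7 of 7 passed with a median of 2.77, without EV vehicle replicate 1 none passed, and without replicate 3 only 1 did. Leaving out p53ERTAM combo replicates 1, 2 and 3 left 1, 0 and 0.

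In the MHC class I list 4 of 14 passed as higher and 1 as lower, with a median of 0.65. That is 35.7% called, near the 35.1% of all genes and below the 41.1% of protein-coding genes. Nlrc5, the class I transactivator, was higher by 1.59 (SE 0.36), and the transporter and loading genes Tap2 (0.76) and Tapbp (0.78) also were. Erap1, a peptide-trimming peptidase, was lower (-0.34, SE 0.08). H2-K1 (0.79, SE 0.27, edgeR adjusted p = 0.055) and B2m (0.50, edgeR adjusted p = 0.2) did not pass. The number higher was 3, 11 and 3 without EV vehicle replicates 1, 2 and 3, and without p53ERTAM combo replicates 1, 2 and 3 it was 3, 0 and 3. The Nlrc5 call was lost without EV vehicle replicate 3 (edgeR adjusted p = 0.0882).

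Chemokine genes were higher in 12 of 20 cases and lower in none, with a median of 1.29. Their called share was 60.0%, beside 41.1% of protein-coding genes. Cxcl16, a ligand for CXCR6-bearing lymphocytes, went from 54.0, 54.7 and 47.8 CPM to 133, 146 and 128 CPM (1.29, SE 0.09, edgeR adjusted p = 0.00013). The monocyte attractants Ccl2 (2.18, SE 0.39) and Ccl12 (2.09, SE 0.39) and the T cell attractant Ccl5 (1.55, SE 0.29) were higher. Cxcl9 (1.30) and Cxcl10 (1.25), which interferon gamma induces, did not pass, and Cxcl9 was at 73.9 CPM in EV vehicle replicate 2 against 6.41 and 4.21 CPM in the other baseline libraries. The number of chemokine genes higher was 13 without EV vehicle replicate 2, 10 without replicate 3, and 8 without p53ERTAM combo replicate 3.

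Checkpoint and costimulation genes were higher in 8 of 10 cases and lower in none. That is 80.0% called, beside 41.1% of protein-coding genes. Nt5e, which encodes the adenosine-producing enzyme CD73, went from 24.4 to 25.6 CPM to 47.7 to 57.0 CPM (0.94, SE 0.11). Vsir (1.13, SE 0.17), Havcr2 (1.43, SE 0.25) and Cd86 (1.32, SE 0.29) were higher. Cd274, which encodes PD-L1, went from 3.76, 10.05 and 2.74 CPM to 26.3, 20.9 and 22.2 CPM (1.97, SE 0.44, edgeR adjusted p = 0.011). The number higher was 8 without EV vehicle replicate 2, 7 without replicate 3, and 5 without p53ERTAM combo replicate 1 or 3.

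Marker genes of immune cells moved unequally. In the joint comparison the called share of the macrophage list was above the 41.1% of protein-coding genes. The shares of the T cell, NK, neutrophil, dendritic cell and B and plasma cell lists were below the 35.1% of all genes. In bulk tissue, fewer cells of a type and less RNA per cell cannot be told apart. Macrophage markers were higher in 11 of 13 tested and lower in none, with a median of 1.61, and their summed level went from 612 to 965 CPM to 1787 to 2513 CPM. C1qa, a complement component made by macrophages, went from 116, 93.4 and 47.6 CPM to 289, 263 and 335 CPM (1.7, SE 0.28, edgeR adjusted p = 0.0031). Adgre1 (1.73), Csf1r (1.37) and Msr1 (1.74) were also higher. Their median was 0.11 in the vector step and 1.30 in the combo step, where 6 were called higher. Without EV vehicle replicate 2 or 3, 10 macrophage markers were higher and 1 lower in each case. Among the T cell markers 1 of 11 passed, Thy1 (1.74), which fibroblasts also express, and Cd3e was at 1.47 to 11.6 CPM in EV vehicle and at 6.90 to 9.54 CPM in p53ERTAM combo. The number of T cell markers higher was 6 without EV vehicle replicate 2 and 1 without replicate 3. Of the dendritic cell markers 2 of 8 were higher, Itgax (1.54) and Zbtb46 (1.07), and the number was 6 without EV vehicle replicate 2 and 2 without replicate 3. In the NK list 1 of 6 was higher, the receptor gene Klrk1 (2.30), and in the neutrophil list 1 of 6, the cytokine receptor gene Csf3r (0.68). In the NK list 3 passed without EV vehicle replicate 2, among them Nkg7 (2.73, edgeR adjusted p = 0.00665), and 2 without replicate 3, among them Eomes (1.45, edgeR adjusted p = 0.0383). In the neutrophil list 1 was higher without EV vehicle replicate 2, and 1 higher and 1 lower (S100a8) without replicate 3. None of the 3 B and plasma cell markers tested passed, although 2 were higher without EV vehicle replicate 2, and none of 6 adipocyte markers did.

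**Figure D4:**
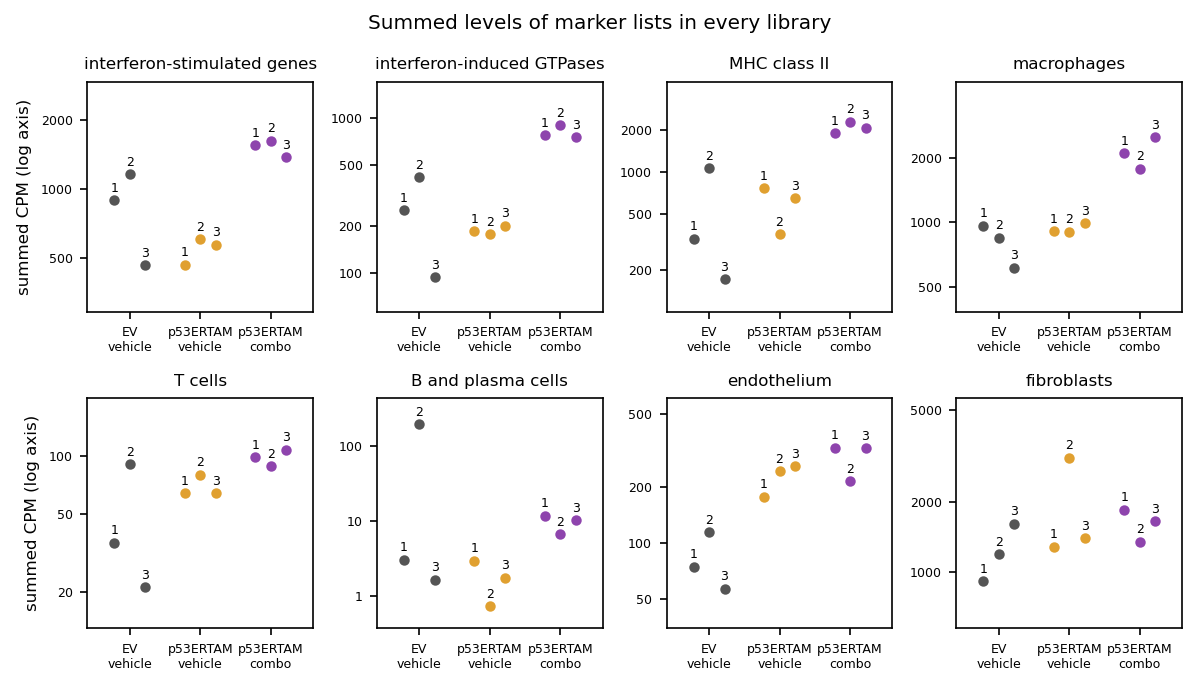
Summed CPM of 8 marker or response lists on log axes in each of the 9 libraries, with replicate numbers above the points. The macrophage sum is 1787 to 2513 CPM in p53ERTAM combo against 612 to 965 CPM in EV vehicle, and EV vehicle replicate 2 holds the highest B and plasma cell sum at 196 CPM.

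Lysosomal genes were higher in 14 of 21 cases and lower in 1, with a median of 0.58. Psap, the precursor of the saposins, went from 911, 899 and 851 CPM to 1832, 1890 and 1874 CPM (0.98, SE 0.07, edgeR adjusted p = 0.00016). The protective protein Ctsa (1.06), Hexa (0.95), Ctsk (1.91) and the intracellular cholesterol carrier Npc2 (0.57) were higher. The median was -0.04 in the vector step and 0.65 in the combo step, in which 10 members were higher. Macrophage markers had the same order of steps, and their part in the lysosomal result was not tested.

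Connective tissue and vessel genes were higher, and they differed already in p53ERTAM vehicle. The matrix list had 19 of 24 members higher and none lower, with a median of 1.51, a vector step of 1.29 (18 higher) and a combo step of 0.25. Col6a3 went from 69.5, 78.8 and 56.2 CPM to 351, 236 and 330 CPM (2.08, SE 0.18, edgeR adjusted p = 0.00026). Col1a1, the main fibrillar collagen, went from 226 to 251 CPM to 694 to 997 CPM (1.75, SE 0.14), and Timp2, a metalloproteinase inhibitor, from 32.5 to 43.8 CPM to 134 to 165 CPM (1.95, SE 0.13). Of the endothelial markers 9 of 10 were higher, with a median of 1.78. Cldn5, a tight junction gene, went from 1.54 to 2.41 CPM to 8.94 to 16.6 CPM (2.71, SE 0.31), and Tie1 from 4.6 to 8.19 CPM to 18.3 to 26.3 CPM (1.90, SE 0.27). Pericyte markers were higher in 5 of 6 cases (Mcam 1.35, Cspg4 1.48, Rgs5 1.29). Of 11 fibroblast markers 7 were higher and 1, the complement gene C3, was lower, from 517 to 1226 CPM to 199 to 225 CPM (-2.09, SE 0.29). Leaving out p53ERTAM combo replicate 1 or 3 left 4 fibroblast markers higher.

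Genes of the mesenchymal state were higher in 10 of 14 cases and lower in 1. Zeb1, a repressor of epithelial genes, went from 6.36, 6.73 and 6.61 CPM to 33.4, 36.4 and 44.0 CPM (2.44, SE 0.14, edgeR adjusted p = 9.9e-05), and p53ERTAM vehicle was already at 34.6 to 46.7 CPM. Twist1 (2.24), Prrx1 (1.82) and fibronectin Fn1 (2.21) were higher. Snai2 was the lower member, from 9.44 to 23 CPM to 2.21 to 2.51 CPM (-2.90, SE 0.35). Stromal markers moved with this list, and their part in it was not tested.

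Many epithelial genes fell, and the falls reached further in the basal list than in the luminal list. In the basal keratin and hemidesmosome list 11 of 19 were lower and 2 higher, with a median of -1.73. Col17a1, a hemidesmosome collagen (chromosome 19, 47646344 to 47692094, - strand), went from 76.8, 145 and 164 CPM to 2.09, 4.61 and 3.52 CPM (-5.34, SE 0.40, edgeR adjusted p = 0.00018). It was at 13.6 to 25.2 CPM in p53ERTAM vehicle and fell at both steps (-2.74 and -2.62, edgeR adjusted p = 0.00029 and 0.012). Trp63, the p53 relative that maintains basal cells, went from 85.1, 115 and 121 CPM to 15.1, 16.6 and 11.7 CPM (-2.99, SE 0.19). Krt14 (-3.79, SE 0.29) and the laminin gene Lama3 (-2.34, SE 0.20) were lower as well. Dst, a plakin with many isoforms, was among the higher members (2.04, SE 0.15). Krt5 was also lower (-4.51), with EV vehicle at 12.9, 78.5 and 97.7 CPM. The summed level of the list was 2784 to 3280 CPM in EV vehicle and 2966 to 3041 CPM in p53ERTAM combo. Most of that sum came from the integrin genes Itga6 (0.24), Itgb4 (-0.31) and Itga3 (0.19), which did not pass.

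Luminal genes were lower in 13 of 16 cases and higher in none, with a median of -0.67. Elf5, a transcription factor of luminal progenitors, went from 173 to 202 CPM to 85.0 to 99.9 CPM (-1.14, SE 0.10), and Krt7 from 155 to 176 CPM to 82.7 to 97.8 CPM (-1.0, SE 0.10). Esrp1 (-0.86), Cldn7 (-0.60) and Cldn3 (-0.63) were lower by smaller amounts. The list had a median of -0.80 in the vector step and of 0.20 in the combo step.

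Receptors of growth factors moved both ways, with 6 of 16 higher and 6 lower. Fgfr2, a receptor of epithelial growth signals (chromosome 7, 130162451 to 133123350, - strand), went from 41.8, 57.5 and 55.6 CPM in EV vehicle through 11.5, 8.31 and 11.9 CPM in p53ERTAM vehicle to 1.34, 1.78 and 1.27 CPM in p53ERTAM combo. The 3 groups did not overlap, and the joint fall was 5.24 log2 units (SE 0.21, edgeR adjusted p = 9.9e-05). It fell at both steps (-2.36 and -2.89, edgeR adjusted p = 3.3e-05 and 0.00068). Egfr (-2.45), Met (-1.17) and Erbb2 (-0.60) were lower, and the TGF-beta receptor Tgfbr1 was higher (1.19). Bmp7, a secreted morphogen, followed Fgfr2, from 38.2, 46.6 and 38.8 CPM to 2.30, 2.46 and 1.51 CPM (-4.39, SE 0.21), with 7.66 to 8.16 CPM in p53ERTAM vehicle. Eya2, a transcriptional cofactor, also passed at both steps (-2.44 and -1.06) and reached -3.48 jointly.

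The unfolded protein response is the pathway of the inhibited RNase. Xbp1 was at 120, 163 and 256 CPM in EV vehicle and at 135, 141 and 139 CPM in p53ERTAM combo, inside the baseline range (-0.47, SE 0.25, edgeR adjusted p = 0.19). It passed as lower without EV vehicle replicate 1 (-0.70, edgeR adjusted p = 0.0337). Its vector step was -0.77 (edgeR adjusted p = 0.026) and its combo step 0.28 (edgeR adjusted p = 0.5). Ern1, which encodes IRE1α, was at 59.1 to 69.8 CPM and at 77.5 to 83.5 CPM (0.26, SE 0.09), and did not pass (edgeR adjusted p = 0.069), although it passed without EV vehicle replicate 2 (0.33, edgeR adjusted p = 0.0383). Spliced and unspliced Xbp1 share 1 gene count, so splicing was not measured. Of 20 XBP1 targets tested 5 were lower and 1 higher, with a median of -0.05. That is 30% called, near the 35.1% of all genes and the 41.1% of protein-coding genes, and the vector step had 5 lower and 1 higher. The lower members were the signal peptidase gene Spcs3 (-0.57), the ubiquitin ligase gene Syvn1 (-0.39) and 3 genes of the Sec61 channel, Sec61b (-0.56), Sec61a1 (-0.25) and Sec61g (-0.73), and Edem1 (0.36) was higher. Dnajb9, an XBP1-dependent chaperone, did not pass (0.26, edgeR adjusted p = 0.21). Leaving out p53ERTAM combo replicates 1, 2 and 3 left 1, 2 and 1 XBP1 targets lower and none higher. Of 10 genes in the ATF6 list 1 was lower, Manf (-0.37), a call lost on leaving out any 1 library other than EV vehicle replicate 1 (edgeR adjusted p = 0.0692 to 0.143). The chaperone Hspa5 differed by -0.02 (SE 0.10). The vector step of the ATF6 list had 5 lower and 1 higher, and the combo step of both lists had no calls.

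Substrates of the IRE1α RNase other than Xbp1 (RIDD) were higher in 5 of 9 cases and lower in none. The 5 were Pdgfrb (2.38), Sparc (1.32), Col6a1 (1.90), Pmp22 (1.17) and Tapbp (0.78). Pdgfrb and the 2 matrix genes among them are also stromal genes, Tapbp belongs to the class I list, and Bloc1s1, a widely used RIDD substrate, was at 0.647 to 1.13 CPM and 0.983 to 1.83 CPM (0.48, SE 0.43) and did not pass. The part of stromal RNA in this list was not tested.

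Of 19 targets of PERK and ATF4, 5 were higher and 3 lower, which is 42.1% called beside 41.1% of protein-coding genes. Their vector step had 4 higher and 8 lower, and their combo step had no calls. Trib3, a pseudokinase induced by stress, went from 20.7 to 27.8 CPM to 93.7 to 103 CPM (1.93, SE 0.13), with a vector step of 2.24 (edgeR adjusted p = 2.4e-05) and a combo step of -0.33 (edgeR adjusted p = 0.24). Atf3 (1.10) and the cystine transporter gene Slc7a11 (1.55) were higher. The serine synthesis gene Psat1 (-1.41), Shmt2 (-0.54) and Aldh18a1 (-0.75) were lower. When EV vehicle replicate 1 was left out, 6 were higher and 6 lower.

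Tubulin genes, which encode the target of docetaxel, were lower in 7 of 12 cases and higher in 2. Tubb4b went from 255 to 275 CPM to 186 to 211 CPM (-0.52, SE 0.08), and Tubb5 from 941 to 1101 CPM to 654 to 765 CPM (-0.57, SE 0.10). Tubg1, which nucleates microtubules (-0.92), and Tubb6 (-0.86) were lower. Tubb2a (0.67, SE 0.12) and Tuba1a (0.71, SE 0.17) were higher. The list had a median of -0.87 in the vector step, with 8 lower, and of 0.57 in the combo step, with Tubb2a (1.11) and Tuba1a (0.93) called higher. Tubulin copies are alike in sequence and can exchange reads.

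Transporters that export drugs were higher in 6 of 8 cases and lower in none. Abcg2, the breast cancer resistance protein (chromosome 6, 58584523 to 58695676, + strand), went from 3.23, 4.31 and 3.38 CPM to 40.9, 45.7 and 50.7 CPM (3.56, SE 0.16, edgeR adjusted p = 9.9e-05). It stood at 21.5 to 41.4 CPM in p53ERTAM vehicle, a vector step of 2.99. Abcb1a, a P-glycoprotein gene for which docetaxel is a known substrate, went from 0.337 to 1.21 CPM to 4.15 to 4.39 CPM (2.61, SE 0.50). Abcc3 (1.22), Abcc5 (0.98) and Abcc4 (1.41) were higher. Leaving out p53ERTAM combo replicate 2 or 3 left 4 called.

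The senescence secretome was higher in 14 of 19 cases and lower in 1, with a median of 1.73. Igfbp7 went from 13.7 to 28 CPM to 88.8 to 122 CPM (2.42, SE 0.27), Hgf from 0.979 to 2.07 CPM to 9.41 to 10.1 CPM (2.44, SE 0.30) and the collagenase gene Mmp13 from 0.881 to 3.02 CPM to 16.5 to 20.2 CPM (3.41, SE 0.45). The plasminogen system genes Plaur (1.62) and Plat (1.73) were higher, and Igfbp5 was lower (-1.57). Il6, a cytokine named in most definitions of this secretome, held at most 0.246 CPM in any of the 6 libraries and was not tested. Macrophages and stromal cells express many of these genes, and their part in the result was not tested.

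Cholesterol synthesis genes were lower in 13 of 16 cases and higher in none, with a median of -0.78 and a vector step median of -0.74. Cyp51 went from 99.6 to 147 CPM to 51.3 to 60.8 CPM (-1.30, SE 0.17), and Hmgcs1 from 119 to 191 CPM to 74.3 to 82.7 CPM (-1.14, SE 0.18). Dhcr7 (-1.14), Idi1 (-1.63) and Fdft1 (-0.95) were lower too. Without EV vehicle replicate 2 the number lower was 8, and without p53ERTAM combo replicates 1, 2 and 3 it was 7, 8 and 7.

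The largest increases were ranked by log2 fold change, with a floor of 1 CPM in the higher group only. Such a ranking favors genes that were low or almost silent at baseline. Cytl1, a secreted cytokine-like protein (chromosome 5, 37735519 to 37739820, + strand), went from 10.8, 6.47 and 4.40 CPM to 500, 643 and 628 CPM (6.27, SE 0.31, edgeR adjusted p = 9.9e-05). It was as high in p53ERTAM vehicle, at 439 to 815 CPM, and did not pass at the combo step (-0.17). Myocd, a coactivator of smooth muscle genes, went from 0.0862 to 0.0979 CPM to 6.69 to 8.40 CPM (6.18, SE 0.34), and Scx, a tendon transcription factor, from at most 0.0862 CPM to 3.01 to 4.6 CPM (6.73).

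A further 6 genes had no count in the EV vehicle libraries, where 3 counts over the group would be 0.0466 CPM. Against that limit Gjc3 was at least 70.6-fold higher, Musk at least 53.4-fold, Agt at least 34.2-fold, Lin28b at least 30.2-fold, Pcdhga4 at least 26.6-fold and Fgf14 at least 22.6-fold. Each of these was detected in all 3 p53ERTAM vehicle libraries and did not pass at the combo step. The bounds cover counting error only and would be lower if both mates of a read pair were counted. Tacr3 (5.98), Dpp10 (5.57), Trim71 (5.34), Gdnf (5.28) and Cnr1 (5.20) were also among the 15 largest increases.

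Among the 15 largest decreases, Lbx1 had no count in p53ERTAM combo and was at least 30.6-fold lower, from 0.723, 1.51 and 1.66 CPM. Pou2af1, a coactivator of POU factors, went from 21.2, 59.4 and 37.8 CPM to 1.17, 1.28 and 1.39 CPM (-5.04, SE 0.41, edgeR adjusted p = 0.00024), and Foxi1, a forkhead factor, from 42.3, 29.3 and 9.30 CPM to 1.09, 1.0 and 0.491 CPM (-5.04, SE 0.60). Esrrg, an orphan nuclear receptor, had the lowest log2 fold change (-8.19, SE 2.02), and its call was lost without any 1 combo library (edgeR adjusted p = 0.0686 to 0.0762). EV vehicle replicate 3 stood at 47.9 CPM against 1.35 and 1.38 CPM in the other baseline libraries. Chst9 (-6.35), Gnao1 (-5.03) and Atp10b (-4.67) had the same library highest. Pou2f3 (-6.42), Sez6l (-6.34), Snph (-5.38), Plb1 (-4.82), Colca2 (-4.71) and Xlr4a (-4.51) were also among the 15.

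Among the genes of smallest p at 10 CPM or more, Snx22 (3.52), Bst1 (3.04), Sgk1 (1.76), Rhob (1.90), Myo7a (3.05), Mxra8 (2.88) and Scarf2 (2.82) were higher. Bst1, which encodes an ecto-enzyme that acts on NAD, went from 5.87 to 7.42 CPM to 52.8 to 64.5 CPM and passed at both steps (1.93 and 1.10). Sgk1, a kinase of salt and stress signaling, went from 53.8 to 59.5 CPM to 194 to 219 CPM. Lower were the histone gene Hist1h4a (-1.46), the midbody gene Cep55 (-1.71), the histone chaperone gene Rbbp7 (-1.37) and Aifm1 (-1.59), a mitochondrial flavoprotein that went from 59.7 to 61.7 CPM to 20.9 to 22.2 CPM. Histone genes have near-identical copies, so the Hist1h4a value is uncertain.

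**Figure D5:**
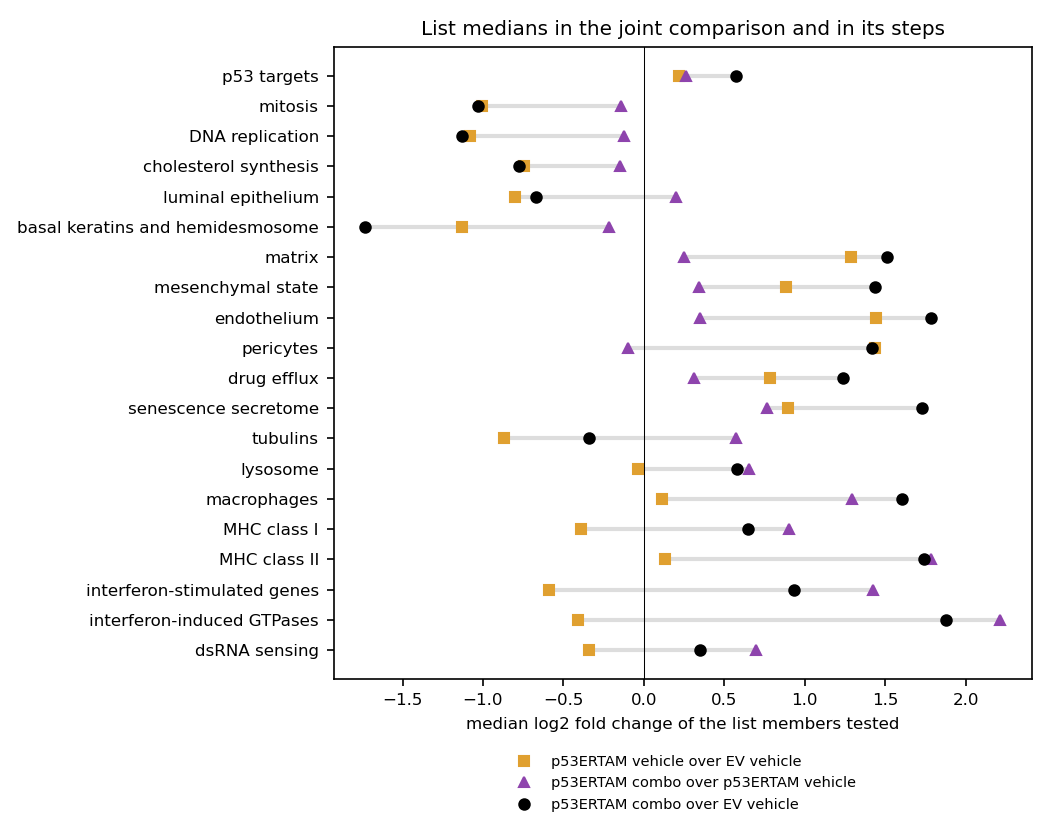
Median log2 fold change of the tested members of 20 lists for p53ERTAM vehicle over EV vehicle (squares), p53ERTAM combo over p53ERTAM vehicle (triangles) and p53ERTAM combo over EV vehicle (circles). Mitosis, DNA replication, matrix and endothelium sit with the squares, at -1.0, -1.08, 1.29 and 1.44, and the interferon-stimulated genes lie at -0.59, 1.42 and 0.94 in that order.

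Of the other lists, the smooth muscle and myoepithelial genes had 4 of 10 higher and none lower, and Wnt and Notch genes 8 of 22 higher and 7 lower. Glycolysis and hypoxia genes had 3 of 19 higher and 2 lower. Of the 7 mitochondrially encoded genes tested 1 was higher and none lower. The called shares of these lists were, in order, 40.0%, 68.2%, 26.3% and 14.3%, beside 41.1% of protein-coding genes. Erythroid markers had 2 of 2 tested lower, with Hba-a1 and Hba-a2 at or near 0 throughout. Their summed level was 2.5 to 5.54 CPM in EV vehicle, 7.96 to 16.5 CPM in p53ERTAM vehicle and 0.328 to 0.502 CPM in p53ERTAM combo. Of the tested members, Alas2 lost its call without EV vehicle replicate 1, p53ERTAM combo replicate 1 or p53ERTAM combo replicate 3 (edgeR adjusted p = 0.0752, 0.0577 and 0.119). Milk protein genes had 1 of 3 higher and 1 lower, and nerve and Schwann cell markers 3 of 5 higher and 1 lower. The single skeletal muscle marker that could be tested was higher, neither of 2 keratinocyte markers passed, and no mast cell marker could be tested.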

How the data were processed

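RNA was extracted from whole tumors and made into stranded, ribosome-depleted total RNA libraries, per the labels. The authors deposited whole-number counts per gene for each library. The submitters' processing notes name FastQC, fastp, STAR, featureCounts and GRCm38.p5, and the strand setting and handling of read pairs are not given in the sources used here. Low counts were even more often than high ones (68.2% to 71.7% against 50.5% to 52.1% in the 6 libraries), so pairs may have been counted as 2 reads.

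Of 52636 gene identifiers, 52489 matched a symbol in GENCODE M21. The 6 libraries were fitted in edgeR 4.0.16 (R 4.3.3) with TMM factors (0.944 to 1.04), filterByExpr, which kept 16859 genes and at least 99.83% of the counts, and the robust quasi-likelihood test with 4 residual degrees of freedom. The Benjamini-Hochberg adjustment covered all genes tested, with a threshold of 0.05. The standard error (SE) was the absolute log2 fold change divided by the square root of F, and its median was 0.19. The 2 steps came from a fit of 9 libraries. The procedure was tested on simulated data. Printed CPM are counts scaled by library totals alone, and limits from absent counts use 3 counts over a group.

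The members and lists were chosen with earlier results of these data known. Genes were named by rule: 9 set genes, up to 15 in each direction with the largest change (at least 1 CPM, groups apart), up to 10 with the smallest p (at least 10 CPM), and up to 5 of smallest p per list. Further members were named after their values were seen. Alternatives used limma 3.58.1 and DESeq2 1.42.0, other scalings, filters, groups, a replicate block, and each of the 6 libraries left out. Promoters are RefSeq windows, the first listed per gene. Some genes that the rule names are not reported here.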

Additional observations from a re-analysis of the deposited data

How the results depend on the processing

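Leaving out each of the 6 libraries in turn gave 1716 to 3108 genes higher and 1955 to 3132 lower. The lowest counts came without p53ERTAM combo replicate 1 and the highest without EV vehicle replicate 3. Tested against a fold of 1.5, 1102 were higher and 766 lower. Every other scaling, filter, test and fit stayed within 1.5 times of the reported counts. Scaling by upper quartiles or by totals alone moved the median of all genes to 0.0988 or 0.0932 and the share of higher calls from 48.2% to 58.8% or 57.8%. Of 228 genes, 26 lost their call without some library and 53 under another setting, 46 of these against a fold of 1.5. GC and length offsets, chosen after seeing the data, gave 2898 higher and 2942 lower.

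The replicate numbers showed no sign of pairing. Deviations of same-numbered libraries correlated at 0.0362, -0.161 and 0.00115, and no library correlated best with its own number. With 3 libraries a group, each centered on the group mean, this check is weak, and a shared batch was not tested. With the replicate block 2334 genes were higher and 2359 lower.

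The signs that turned concerned uncalled lymphocyte genes and list medians. With the replicate block Jchain was 0.26 and Cd79b 0.39, and the B and plasma cell median was 0.26. Over the libraries left out in turn, Mzb1 ranged from -4.26 to 0.55, Jchain from -3.11 to 2.01, Cd79b from -2.54 to 2.63, and the B and plasma cell median from -3.11 to 2.01, each highest without EV vehicle replicate 2. The T cell median ranged from -0.33 to 1.89 and the PERK and ATF4 median from -0.10 to 0.20. The causes were not tested.

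With 3 libraries a group, whole-tumor RNA and unstated tamoxifen treatment, the joint comparison cannot assign a change to p53, to either drug, or to a cell type. Counting depth limits genes near the limits given in CPM.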

Other observations

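The genes here were picked after their values were seen, so they are a description. Several of the genes that fell furthest are regulators of rare epithelial cell types. Pou2f3 and Colca2, genes of the transcription factor module of tuft cells, had log2 fold changes of -6.42 and -4.71. Pou2af1, a coactivator of POU factors that B cells express, had -5.04. Each of these genes had its highest baseline level in EV vehicle replicate 2, the library with the B cell markers (Pou2af1 at 59.4 CPM). The part of that library's lymphocyte signal in these values was not tested. Foxi1, the master regulator of ionocytes, and the proton pump subunit gene Atp6v1b1 and the chloride channel gene Cftr, which ionocytes express, had -5.04, -3.02 and -2.55. Atp6v1b1 went from 21.3, 24.7 and 27.7 CPM in EV vehicle to 4.39, 3.79 and 1.56 CPM in p53ERTAM combo.

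Genes of an oncofetal program moved unequally. Lin28b, an RNA-binding protein that blocks let-7 maturation, had no count in EV vehicle and was at 1.06 to 1.78 CPM in p53ERTAM combo, and Trim71, a let-7 target, was higher by 5.34. Igf2bp1, which binds Igf2 mRNA, went from 2.51, 1.21 and 1.62 CPM to 12.3, 16.7 and 19.2 CPM (3.09, SE 0.31, edgeR adjusted p = 0.00045). Igf2 itself, a fetal growth factor, went from 18524, 24011 and 32514 CPM through 10986, 10020 and 8472 CPM in p53ERTAM vehicle to 3908, 4628 and 4007 CPM (-2.68, SE 0.22, edgeR adjusted p = 0.00024). Its share of the library thus differed between all 3 groups without overlap.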
